A study of Mus musculus with 8 samples.

Results

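Inhibitory interneurons are the local nerve cells of the cortex that release GABA, the main inhibitory transmitter of the brain. The 10 genes described here, out of 22000 rows in the count table, were chosen by name and role, with earlier results of these data known. They are Gad1 and Gad2, which code for the enzymes that make GABA, Slc32a1, which codes for the transporter that loads it into vesicles, Lhx6 and Dlx1, transcription factors of interneuron development, and Pvalb, Sst, Vip, Reln and Htr3a, whose expression divides cortical interneurons into classes. All 10 were read in every library and passed the filter on low counts.

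RNA was sequenced from the whole cortex of 8 mice, with 1 library per mouse. The groups compared were 4 mice labelled Mef2c heterozygous and 4 labelled Mef2c wild type, each with 2 males and 2 females. The labels give no strain, age, treatment or description of the altered allele, and they name the tissue as brain and whole cortex. Mef2c codes for a transcription factor of the MEF2 family that is expressed in cortical neurons. The animal numbers in the labels fall into 2 separate stretches of 4 mice each, called here the first (lower numbers) and the second run, and each run held 1 animal of each sex and genotype. The labels do not say what the runs stand for.

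Interneurons of the cortex arise below it, in the ganglionic eminences, and migrate in. Those of the medial eminence depend on Lhx6 and become the fast-spiking parvalbumin (Pvalb) cells, which contact cell bodies, and the somatostatin (Sst) cells, which contact dendrites. Those of the caudal eminence carry the serotonin receptor subunit gene Htr3a and include the Vip cells, which mostly inhibit other interneurons, and reelin (Reln) cells of the upper layers. MEF2C is known from the development of parvalbumin interneurons, among other neurons.

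Total counts lay between 16092773 and 17841377 per library. Mef2c itself was higher in the libraries labelled heterozygous, at 1304 ± 73.2 CPM (SD, n = 4) against 995 ± 41.3 CPM (SD, n = 4). CPM is the read count scaled to a common library size. A lost allele would be looked for as a lower level, and which part of the gene is altered is not given in the sources used here, so this whole-gene count does not check the labels and every direction is given for libraries by their label. Heterozygous replicate 4, labelled female, held 72 reads of 4 Y-linked genes, where the male libraries held between 2150 and 2564 and the other female libraries 0, 3 and 0. Without that library 0 of the 10 genes were called between genotypes, and the log2 difference of Sst was 0.16. Markers of excitatory cortical neurons, 9 genes such as Slc17a7 and Neurod2, summed to between 9712 and 10501 CPM in all libraries.

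The promoters of the 3 class genes Sst, Vip and Pvalb are shown because Sst was the 1 gene of the 10 called in any comparison, and Vip and Pvalb mark the classes it is set against. Each line gives the 250 bases before the start that RefSeq places for the gene (build GRCm38.p6), 5′ to 3′ on the gene's strand, at chr16:23890845-23891094 (minus strand) for Sst, chr10:5638968-5639217 (plus strand) for Vip and chr15:78206401-78206650 (minus strand) for Pvalb.
Sst: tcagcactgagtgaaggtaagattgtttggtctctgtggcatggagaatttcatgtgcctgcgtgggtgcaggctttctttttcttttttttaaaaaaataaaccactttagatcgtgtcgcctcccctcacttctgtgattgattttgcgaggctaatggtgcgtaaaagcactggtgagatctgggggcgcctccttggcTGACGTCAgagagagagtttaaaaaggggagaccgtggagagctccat
Vip: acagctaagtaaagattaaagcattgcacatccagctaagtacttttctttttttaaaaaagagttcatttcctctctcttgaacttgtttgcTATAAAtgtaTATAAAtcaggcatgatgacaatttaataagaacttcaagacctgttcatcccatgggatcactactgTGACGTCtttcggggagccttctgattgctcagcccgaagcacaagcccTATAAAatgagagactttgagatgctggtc
Pvalb: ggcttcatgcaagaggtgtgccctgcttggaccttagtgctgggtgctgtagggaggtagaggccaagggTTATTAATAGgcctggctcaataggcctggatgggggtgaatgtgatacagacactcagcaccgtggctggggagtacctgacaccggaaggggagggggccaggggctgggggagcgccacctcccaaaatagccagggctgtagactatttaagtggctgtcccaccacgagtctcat
Capitals mark matches to 3 motifs searched on both strands: TGACGTC, the core of the cyclic AMP response element (CRE), TATAAA, the TATA box, and the MEF2 consensus. Sst holds the full palindromic CRE, TGACGTCA, from position -48, which overlaps the shorter core on both strands, and Vip holds the core from position -79. Of 32851 promoter windows of the same length in that table, 1.55% held TGACGTCA, 2.78% TGACGTC and 12.4% TATAAA. A match to the MEF2 consensus stood in 2.92% of all windows, and among the 12 windows found for 9 of the 10 genes it stood in 1 window of Pvalb, from position -180. Binding was not measured, and GENCODE places the start of Sst inside the window shown. Htr3a had no entry.

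Levels between genes were compared per kilobase of annotated exon (GENCODE M21, build GRCm38), since longer transcripts give more reads. That length joins the exons of all annotated transcripts of a gene. It can exceed the length of any single transcript, so the order depends on the annotation too. Sst was the highest by far, at a mean of 326 CPM per kilobase over the 8 libraries (range 274 to 373). Pvalb followed at 55.4 (46.6 to 63.5) and Gad1 at 50.02 (45.1 to 54.3), and the ranges of these neighbours overlapped. Slc32a1 had 39.3 CPM per kilobase, Gad2 28.2 and Vip 15.2, and their ranges over the libraries did not touch. The transcription factor genes were lower, with Dlx1 at 7.88 and Lhx6 at 4.53. Reln, a gene with very long exon sequence, had 3.45 (2.98 to 3.99) and Htr3a 2.91 (2.25 to 4.08) CPM per kilobase, and these last neighbours overlapped. Slc32a1, Dlx1 and Reln share exon bases with antisense transcripts (Gm14205, Dlx1as and Gm10475), whose reads could be counted with them since the strand setting is not given in the sources used here. Lhx6 shares 104 bases with a small RNA gene on its own strand.

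The comparison of the genotypes asked whether interneuron transcripts differ in the cortex of Mef2c heterozygous mice. None of the 10 genes passed the test. Sst had the largest fold, 1.13 for libraries labelled heterozygous over wild type, followed by Dlx1 at 1.08 and Gad1 at 1.07, while the folds of Slc32a1 and Pvalb were 0.9991 and 0.992. By edgeR's quasi-likelihood F-test, with p adjusted over 13879 genes by Benjamini-Hochberg and called under 0.05, 0 of 10 were called, where 0.267% of all tested genes were. At an unadjusted p under 0.05 there were 2 of 10, Gad1 and Sst, beside 7.24% of all tested genes, and DESeq2 and limma-voom also called 0 of 10. The genotypes overlapped in all 10, while 4.55% of all tested genes had groups without overlap. The median log2 difference of the 10 was 0.05, with 6 above 0, beside a median of -0.001 over all tested genes. In whole cortex, fewer cells of a type and less RNA per cell cannot be told apart.

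**Figure D1:**
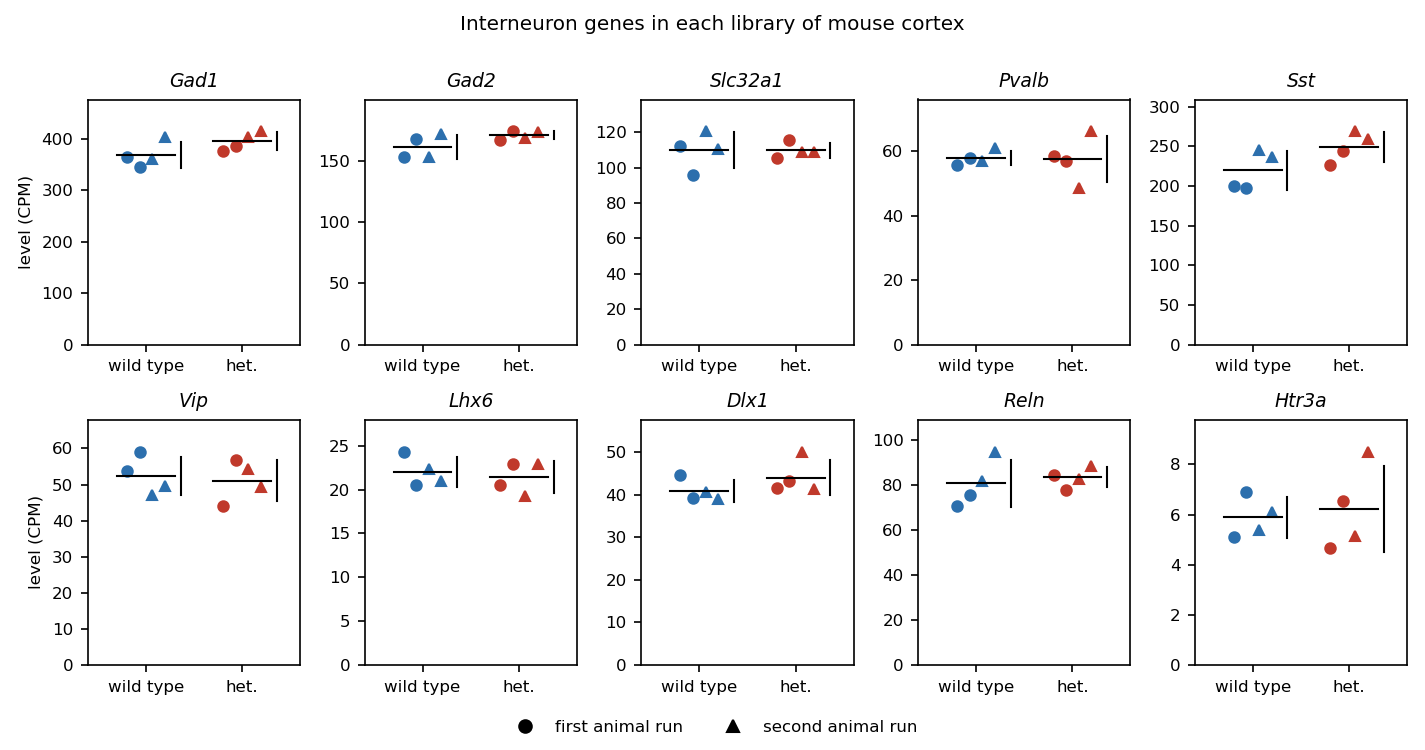
Level of each interneuron gene in CPM (vertical axes, each from 0) in the 4 wild type and 4 heterozygous libraries. Points are libraries, circles the first and triangles the second run of animal numbers, horizontal lines group means and vertical lines 1 SD; the genotypes overlap for every gene.

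Of the GABA synthesis genes, Gad1 (ENSMUSG00000070880.10, chromosome 2 from 70553072 to 70602014, plus strand) codes for GAD67, which makes most of the GABA of the cell body. Its levels were 376, 387, 404 and 415 CPM in heterozygous replicates 1 to 4 and 365, 345, 361 and 404 CPM in wild type replicates 1 to 4. The highest wild type library lay inside the heterozygous range, so the groups overlapped. The log2 difference was 0.10 ± 0.05 (SE), with a 95% interval from 0.002 to 0.20 and an edgeR adjusted p = 0.671. Gad2 (chromosome 2 from 22622205 to 22693874) codes for GAD65, found at nerve endings. It had 167, 174, 169 and 174 CPM in the libraries labelled heterozygous and 153, 168, 153 and 171 CPM in the wild type libraries, so 2 wild type libraries were low and the other 2 lay within the heterozygous range. Its log2 difference was 0.08 ± 0.05 (SE), and the fold interval ran from 0.981 to 1.14.

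Slc32a1 (chromosome 2 from 158610767 to 158615748), the gene of the vesicular GABA transporter, had 106, 116, 109 and 109 CPM in the libraries labelled heterozygous and 112, 96.0, 120 and 110 CPM in the wild type libraries. The wild type group held both the highest and the lowest library. The means were 109.8 ± 4.14 and 109.8 ± 10.2 CPM (SD, n = 4), and the 95% interval of the fold ran from 0.912 to 1.09. The group means of the transporter gene were thus equal to the digits given.

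Among the class genes of the medial eminence, Sst (ENSMUSG00000004366.4, chromosome 16 from 23889573 to 23890958, minus strand) codes for the peptide somatostatin. Heterozygous replicates 1 to 4 had 226, 244, 269 and 259 CPM, and wild type replicates 1 to 4 had 200, 198, 246 and 236 CPM. The 2 lowest libraries were wild type and the 2 highest heterozygous, with the groups overlapping in between. The means were 250 ± 18.7 and 220 ± 24.7 CPM (SD, n = 4), a log2 difference of 0.18 ± 0.08 (SE) with an edgeR adjusted p = 0.616 (unadjusted 0.0362). The two-sided exact permutation p over the 8 libraries was 0.143, where 4 against 4 can give 0.0286 at the least. This permutation took no account of sex or run.

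Pvalb (chromosome 15 from 78191114 to 78206400), the gene of the calcium buffer parvalbumin of fast-spiking cells, had 58.4, 56.9, 48.5 and 66.1 CPM in the libraries labelled heterozygous and 55.7, 57.9, 57.0 and 60.8 CPM in the wild type libraries. The highest and the lowest value both came from heterozygous mice of the second run, and the wild type range lay inside the heterozygous one. The fold was 0.992 with a 95% interval from 0.891 to 1.10. Lhx6 (chromosome 2 from 36081953 to 36105408), the transcription factor gene on which both of these classes depend, lay between 19.3 and 23.0 CPM in the libraries labelled heterozygous and between 20.5 and 24.3 CPM in the wild type libraries. Its log2 difference was -0.04 ± 0.09 (SE), with the groups overlapping over most of their range.

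Of the remaining genes, Vip (chromosome 10 from 5639218 to 5647617) is a peptide gene of disinhibitory interneurons. Its levels were 44.0, 56.7, 54.2 and 49.4 CPM in the libraries labelled heterozygous and 53.7, 59.1, 47.1 and 49.7 CPM in the wild type libraries. Neither genotype was set apart, and the fold was 0.9746 (95% interval 0.862 to 1.10). Reln (chromosome 5 from 21884454 to 22344702), the gene of a large secreted glycoprotein of layer formation, lay between 77.7 and 88.4 CPM in the libraries labelled heterozygous and between 70.7 and 94.6 CPM in the wild type libraries, with a log2 difference of 0.05 ± 0.08 (SE). Dlx1 (chromosome 2 from 71528113 to 71533981), a homeobox gene of the GABAergic lineage, had 41.5, 43.3, 50.1 and 41.3 CPM against 44.7, 39.3, 40.6 and 39.1 CPM, and 1 heterozygous library stood above the others. Its log2 difference was 0.11 ± 0.08 (SE). Htr3a (chromosome 9 from 48899213 to 48911099), the gene of an ion channel opened by serotonin, was the least counted, with 79 to 152 reads per library, and lay between 4.68 and 8.51 CPM in the libraries labelled heterozygous and between 5.12 and 6.91 CPM in the wild type libraries. Its fold interval was the widest of the 10, from 0.800 to 1.36.

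**Figure D2:**
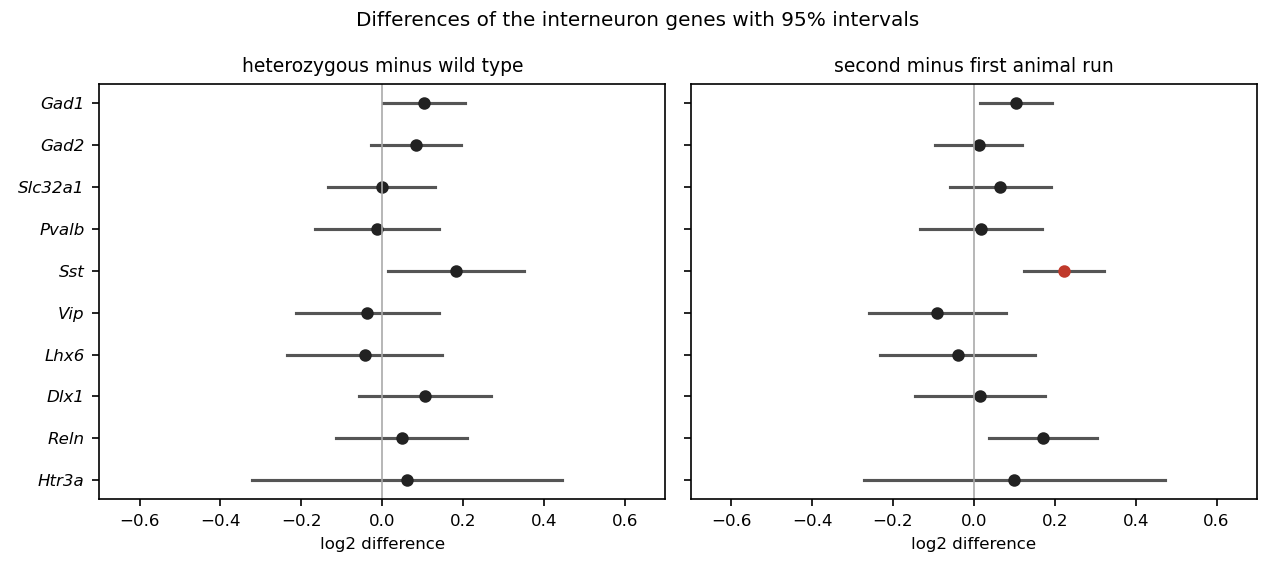
Log2 difference (horizontal axis) of each gene between genotypes (left) and between runs of animal numbers (right), with 95% intervals from the edgeR fit. Sst in the run comparison, drawn in red, is the 1 point with an adjusted p under 0.05.

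Genes differed in how evenly they were expressed over the 8 mice. Gad2 was the steadiest, with a coefficient of variation of 5.13%, and Gad1 and Slc32a1 had 6.44% and 6.56%. Sst varied by 10.95% where counting noise alone gives 1.58%, and its highest library was 1.36 times its lowest. Htr3a varied by 20.7%, with 9.82% from counting noise. Lhx6 varied by 7.62%, of which 5.19% is the size of counting noise, so its spread was closest to what its depth allows.

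Sst was higher in the second run, at 253 ± 14.4 against 217 ± 22.2 CPM (SD, n = 4 each), a log2 difference of 0.22 ± 0.05 (SE) or 1.17-fold. The edgeR adjusted p was 0.0391, with sex and genotype as terms. Of the 10 genes 1 was called, beside 0.382% of all tested genes, and 3 of 10, Sst, Reln and Gad1, had an unadjusted p under 0.05, beside 10.2%. The two-sided exact permutation p of Sst between the runs was 0.0571, with no account of sex or genotype. Over all 8 libraries the runs overlapped in Sst, as in the other 9 genes (5.46% of all tested genes had no overlap). Within each genotype they did not: wild type libraries had 198 and 200 CPM in the first and 236 and 246 CPM in the second run, and libraries labelled heterozygous 226 and 244 against 259 and 269 CPM. Such a separation by run in both genotypes was seen in 1 of the 10 genes and in 9.8% of all tested genes. The Sst call held without heterozygous replicate 2 and ended without any of the other 7 libraries, with edgeR adjusted p between 0.0722 (without wild type replicate 4) and 0.166 (without wild type replicate 3). The log2 difference was between 0.19 and 0.26 with each of the 8 libraries left out in turn.

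Read in the other direction, the genotypes were separate within each run for Sst and for Gad1. The Sst difference between genotypes was 0.24 on the log2 scale in the first and 0.13 in the second run, and that of Gad1 was 0.10 in both. A higher level in libraries labelled heterozygous without overlap in both runs was seen in 2 of the 10 genes and in 4.04% of all tested genes, or 8.6% counting both directions. With the run as a further term, the genotype difference of Sst was 0.19 ± 0.05 (SE) with an edgeR adjusted p = 0.0843, and 0 of 10 were called, beside 0.519% of all tested genes. Unadjusted p under 0.05 were those of Sst and Gad1, 2 of 10 beside 8.56%. The interaction of genotype and run in Sst was -0.11 ± 0.10 (SE). No member was called for that interaction, beside 0.00721% of all tested genes, and 0 of 10 had an unadjusted p under 0.05, beside 4.09%; DESeq2 and limma-voom also called 0.

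**Figure D3:**
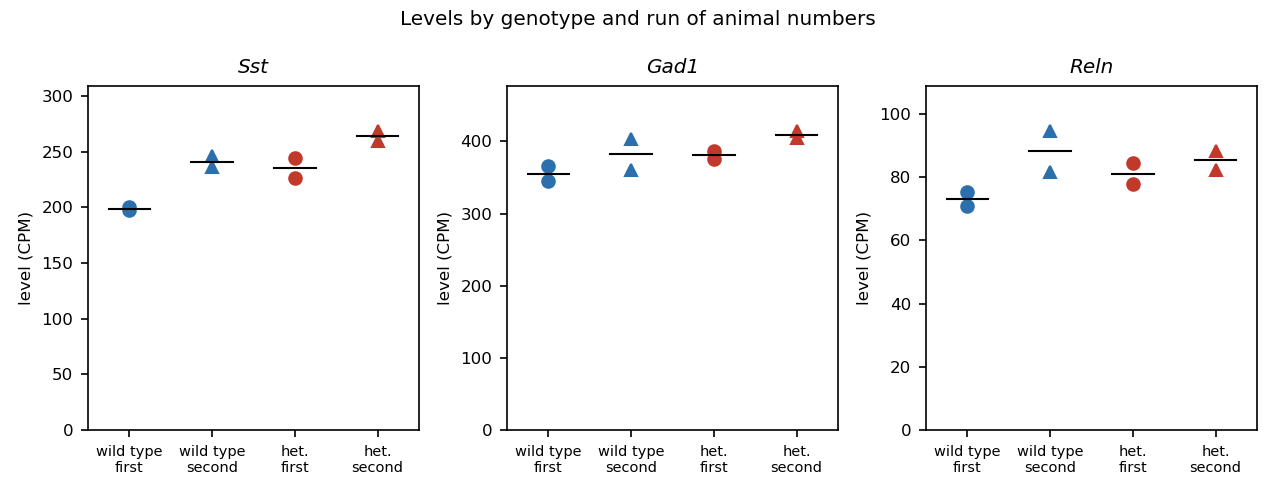
Levels in CPM (vertical axes, from 0) of Sst, Gad1 and Reln in the 4 combinations of genotype and run, with 2 libraries each and the mean as a line. In Sst the second run lies above the first in both genotypes, and the libraries labelled heterozygous lie above the wild type ones in both runs.

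Reln and Gad1 had smaller differences between the runs that did not pass. Reln was at 86.7 ± 6.07 CPM in the second and 77.0 ± 5.70 CPM in the first run (SD, n = 4), with an edgeR adjusted p = 0.322. The wild type libraries had 70.7 and 75.2 CPM in the first and 81.6 and 94.6 CPM in the second run, without overlap, and those labelled heterozygous 84.4 and 77.7 against 82.3 and 88.4 CPM, with overlap. The interaction of genotype and run in Reln was -0.20 ± 0.13 (SE), with an edgeR adjusted p = 0.9994. Gad1 was 1.07-fold higher in the second run. Gad2, Slc32a1, Pvalb, Vip, Lhx6, Dlx1 and Htr3a had log2 differences between -0.09 and 0.10 and edgeR adjusted p of 0.763 or more. Of the genes of the other lists 1 was called between runs, Pecam1 of endothelial cells. Its log2 difference was -0.53 ± 0.12 (SE), with an edgeR adjusted p = 0.0437. Of the 8 genes of its list, glial and vessel genes, 4 had an unadjusted edgeR p under 0.05 between runs, beside 10.2% of all tested genes. The run difference was above 0 in 3 of these 8. The part of these cells in the result for Sst was not tested.

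Between the sexes, 0 of 10 genes were called by edgeR, beside 0.0288% of all tested genes, and 0 of 10 had an unadjusted p under 0.05, beside 2.92%. DESeq2 and limma-voom also called 0. The largest difference was that of Htr3a, at -0.24 ± 0.18 (SE) for males minus females. For the interaction of genotype and sex, 0 of 10 genes were called, as of all tested genes (0%), and Htr3a had the 1 unadjusted p under 0.05 (edgeR, 0.0428, adjusted 1), beside 2.64% of all tested genes; DESeq2 and limma-voom also called 0. Heterozygous females had 6.56 and 8.51 CPM of Htr3a and heterozygous males 4.68 and 5.16 CPM, while wild type females had 5.12 and 6.12 CPM and wild type males 6.91 and 5.39 CPM. These are 2 libraries per sex and genotype, with 79 to 152 reads of Htr3a per library. The 8.51 CPM was that of heterozygous replicate 4, the library labelled female that held 72 reads of Y-linked genes.

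The wider lists place these genes among others of the same cells, and no list had a called member in the genotype comparison. Of 8 genes of GABA uptake, breakdown and supply, 7 were tested, with log2 differences from -0.02 to 0.11 and a median of 0.01. The uptake transporter gene of astrocytes Slc6a11 had 151 ± 14.0 against 147 ± 8.02 CPM, and Slc6a13, a transporter gene of the leptomeninges, 6.96 against 6.45 CPM. Of 12 further transcription factor genes of interneurons, 11 were tested, 9 lay above 0 and the median was 0.08. Npas1, a factor gene of caudal eminence cells, had 8.27 ± 0.627 against 6.49 ± 0.910 CPM without overlap, and an edgeR adjusted p = 0.570. Satb1, a factor gene of Sst and Pvalb cell maturation, had 154 against 163 CPM. The 5 genes shared by medial eminence interneurons lay between -0.04 and 0.05, with the neuregulin receptor gene Erbb4 at 64.1 against 65.8 CPM and Nxph1, which codes for a neurexin ligand, at 41.1 against 39.7 CPM.

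**Figure D4:**
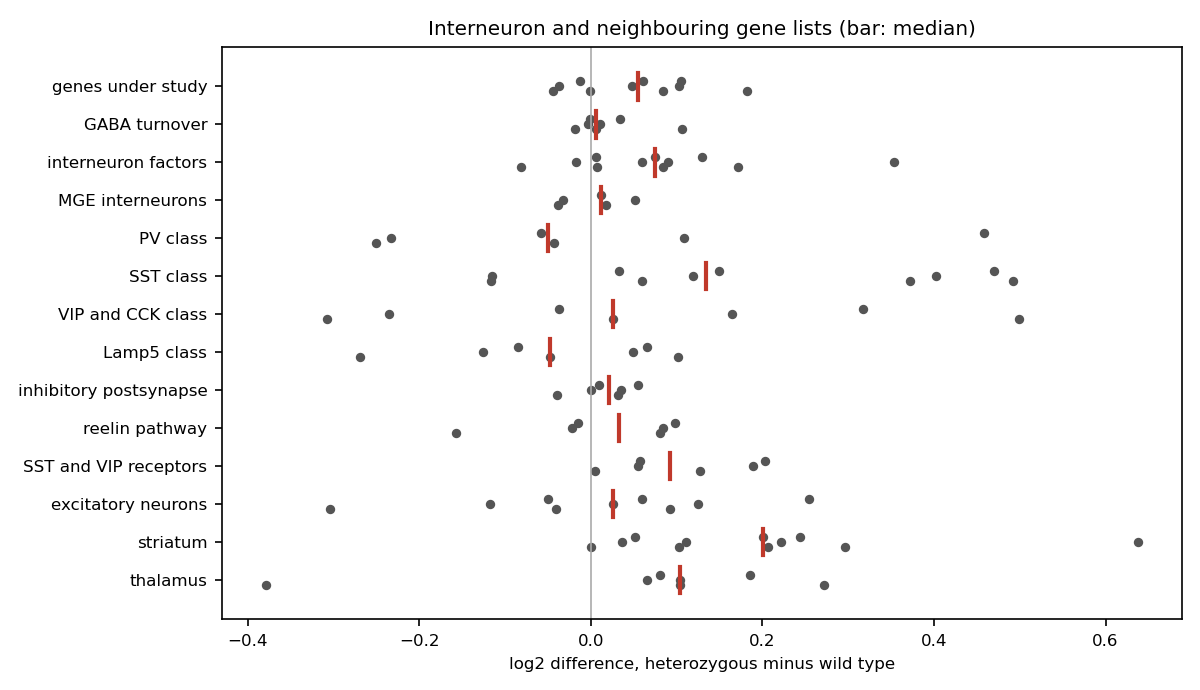
Log2 difference between libraries labelled heterozygous and wild type (horizontal axis) for each tested gene of 14 lists, with the list median as a red bar. The median of the SST class list is 0.13 and that of the striatum list 0.20, while those of GABA turnover and of the inhibitory postsynapse lie near 0.

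Among other genes of somatostatin cells, 10 of 11 were tested and 8 lay above 0. Their log2 differences ran from -0.12 to 0.49, with a median of 0.13. The 11 genes summed to between 440 and 485 CPM in the libraries labelled heterozygous. This lay inside the wild type range, 428 to 493 CPM. The sum rests mostly on the most counted genes of the list, Calb1 and Npy. Calb1 had 2719 to 3387 reads a library and a log2 difference of -0.12, and Npy 1856 to 2381 reads and 0.03. It therefore says little of the less counted genes. Crhbp, whose product binds the stress peptide CRH, had 27.0 ± 4.00 CPM in the libraries labelled heterozygous and 20.4 ± 2.40 CPM in the wild type libraries (SD, n = 4), with an edgeR adjusted p = 0.147. Nos1, which codes for neuronal nitric oxide synthase and is also expressed outside this class, had 56.2 ± 5.97 against 40.5 ± 8.36 CPM (SD, n = 4) and an edgeR adjusted p = 0.394. The list's score, the mean of centred log2 levels, ran from -0.095 to 0.23 in the libraries labelled heterozygous and from -0.14 to -0.015 in the wild type libraries. The 6 tested genes of the receptor list were Sstr1 to Sstr4, Vipr1 and Adcyap1r1, of which the last codes mainly for a receptor of the peptide PACAP. All 6 lay above 0, beside 49.5% of all tested genes, with a median of 0.09 and Vipr1 lowest at 0.004. The receptor gene Sstr2 had 31.8 against 28.0 CPM and Sstr1 13.3 against 11.5 CPM, and neither passed.

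The 6 tested genes of the list drawn up for Pvalb cells had a median of -0.05 and ran from -0.25 to 0.46. The ends of that range are genes not particular to these cells. Tac1, the gene of substance P, which striatal neurons also express, was highest, with 16.9 ± 4.55 against 12.2 ± 2.68 CPM. Mybpc1, the lowest, had 4.09 against 4.80 CPM. Among 7 tested genes of Vip and Cck cells the median was 0.03. Cck, a peptide gene that excitatory neurons express too, had 447 ± 26.1 against 399 ± 18.7 CPM (SD, n = 4) with an edgeR adjusted p = 0.238, and Calb2, the calretinin gene, 14.2 ± 4.37 against 10.01 ± 0.844 CPM. In the list of neurogliaform and Lamp5 cells, 7 were tested and the median was -0.05. Lamp5, a membrane protein gene also expressed by excitatory neurons, came nearest to a call of all lists, with 201 ± 6.51 CPM in the libraries labelled heterozygous and 242 ± 23.5 CPM in the wild type libraries (SD, n = 4), no overlap and an edgeR adjusted p = 0.0607. Egln3 of the same list had 13.2 against 14.4 CPM.

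On the receiving side of the synapse, the 6 genes of the inhibitory postsynapse lay between -0.04 and 0.05. The scaffold gene Gphn had 86.1 ± 3.02 against 82.9 ± 4.70 CPM and the chloride exporter gene Slc12a5 689 ± 13.2 against 708 ± 30.8 CPM. Of the reelin receptors and their adaptors, 3 of 6 lay above 0. The reelin receptor gene Vldlr had 67.7 ± 2.90 against 75.5 ± 4.35 CPM (SD, n = 4) with an edgeR adjusted p = 0.526, and the other receptor gene Lrp8 81.0 against 76.4 CPM. Cajal-Retzius cells, a further source of reelin, were hardly represented. Their markers Lhx1 and Lhx5 had 0 reads in all libraries. The 6 markers summed to between 0.948 and 2.63 CPM in the libraries labelled heterozygous and between 1.34 and 3.05 CPM in the wild type libraries.

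The striatum lies below the cortex and its projection neurons also express Gad1, Gad2 and Slc32a1. The striatal marker score was high in heterozygous replicates 1 and 2 (0.37 and 0.38) and wild type replicate 4 (0.23) and lay between -0.38 and -0.04 in the other 5 libraries. The 13 striatal markers in the table summed to between 494 and 660 CPM in the libraries labelled heterozygous and between 506 and 577 CPM in the wild type libraries, and none was at 0 in all libraries. Drd1, a main marker of striatal neurons, was not analysed here and is not part of the score. The relation of each of the 10 genes to that score over the 8 libraries was tested with exact permutation of the pairings. The highest correlation was that of Gad2 (Pearson r = 0.50, exact p = 0.217, Spearman rho = 0.40, exact p = 0.327), and its r was 0.43 without the 2 libraries farthest from the median score, heterozygous replicates 1 and 2. All 10 adjusted exact p-values were 0.932 for Pearson's r and 0.977 for Spearman's rho. Gad1 and Sst had r of 0.06 each. With the score as a further term, the genotype difference on the log2 scale was 0.19 for Sst and 0.11 for Gad1. Without that term these were 0.18 and 0.10. The score of libraries labelled heterozygous minus wild type was 0.59 in the first and -0.28 in the second run. The part of striatal tissue in the results was not tested. Of the 9 excitatory neuron markers 5 lay above 0, with a median of 0.03, and none was called: Neurod6, a factor gene of excitatory cortical neurons, had 149 ± 10.1 against 125 ± 9.98 CPM (SD, n = 4; edgeR adjusted p = 0.109), and Emx1, a factor gene of the cortical lineage, 21.8 ± 1.70 against 26.9 ± 1.61 CPM without overlap (SD, n = 4; edgeR adjusted p = 0.199). Between genotypes 10 of 11 tested striatal genes lay above 0, with a median of 0.20, beside 49.5% of all tested genes. In the other lists of neighbouring tissue and cells, 6 of 7 thalamic, 5 of 6 hippocampal and 3 of 8 glial and vessel genes lay above 0. The thalamic markers summed to 60.3 to 70.6 CPM in the libraries labelled heterozygous and 54.6 to 64.2 CPM in the wild type libraries. The part of these cells in the results was not tested. The correlations were not tested within the runs, which hold 4 libraries each.

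The genes whose pattern over the 8 libraries was most like the mean centred level of Gad1, Gad2 and Slc32a1, out of 12859 genes ranked, were Grb10 (Pearson r = 0.97), Galnt10 (0.96), Pnma1 (0.96), Chpf2 (0.94) and Yipf5 (0.93). They are given as a description of likeness over 8 libraries, being the highest of a very large number of comparisons.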

How the data were processed

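Polyadenylated RNA of whole cortex was sequenced in 8 libraries. The authors' deposited table holds whole, unscaled counts for each gene symbol. STAR 2.5.2b, HTSeq and the build mm10 are named per the submitters' processing notes, and the sources used here do not give annotation, strand setting or filters. Everything else was computed from the counts. Genes were kept by edgeR's filterByExpr (minimum count 10), leaving 13879 of 22000, and scaled by TMM. Genotypes were compared in a robust quasi-likelihood fit (edgeR 4.0.16, R 4.3.3) with sex and genotype as terms, Benjamini-Hochberg adjusted over all tested genes and called under 0.05; intervals are 95%. The run of animal numbers and the interactions were tested in further fits. List scores and correlations use log2(CPM + 0.5). Alternatives used DESeq2 1.42.0, limma-voom 3.58.1 and other scalings, filters and covariates. The members and lists were chosen with earlier results of these data known. Named genes were the 10 members, Mef2c, the 2 genes of smallest p (or all called) of each list, of which those of the striatal, thalamic, hippocampal, Cajal-Retzius and glial lists are not described one by one, the list genes called between runs, and the 5 genes most like the GABA genes in pattern. Chat, Slc6a12, Nkx2-1, Vipr2, Chodl, Htr3b, Sstr5, Six3, Isl1, Dsp, Trp73, Lhx5, Lhx1, Ebf3 and Nhlh2 were too weakly counted to test. The striatal score rests on the 11 tested genes of its list. The 8 libraries are separate mice per the labels, and no pair within a genotype agreed within sampling noise (lowest chi-square per degree of freedom 4.12 over 12 pairs). On simulated counts for the genotype comparison of 13879 genes, 28 of 50 genes changed 1.25-fold were recovered. At 1.5-fold 34 of 50 were recovered and at 2-fold 43 of 50, and there were 11 false calls. No fold below 1.25 was simulated, and the largest member fold between genotypes was 1.13, for Sst. The simulation therefore does not give the recovery at such folds. Its means held no difference between runs. One marker of the excitatory list is not reported here and was left out of that list.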

Additional observations from a re-analysis of the deposited data

How the results depend on the processing

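No member was called between genotypes under any of the 15 other settings tried or with any library left out (0 to 0), and the differences of Sst and Gad1 were above 0 in all of them. The call of Sst between the runs held under the 7 other settings, and 0 to 1 members were called there with a library left out. Of the 7 settings 1 was the looser threshold of 0.1 on the same fit, under which the call could not end. Small log2 differences changed sign. Slc32a1 between genotypes was 0.0028 with limma-voom, 0.0014 with upper-quartile scaling, 1e-04 with 1 CPM in 4 libraries, 4e-04 with the run and 4e-04 with the striatum score as a term, 0.0346 with RIN as a term, 0.0121 in females and 0.0876 in the first run alone. Females alone gave 0.0782 for Pvalb, 0.0384 for Vip and 0.0166 for Lhx6, and males alone -0.3218 for Htr3a. The first run alone gave 0.0224 for Pvalb and -0.0963 for Htr3a, and the second run alone 0.0978 for Vip and -0.0441 for Reln. The sex difference of Sst was 7e-04 with upper-quartile scaling, and the interaction with the run in Lhx6 was 0.0051 with limma-voom. With 1 library left out in turn, the log2 difference between genotypes ran from -0.0966 to 0.2079 for Htr3a, -0.0759 to 0.0569 for Pvalb, -0.0237 to 0.1466 for Reln, -0.0611 to 0.0697 for Slc32a1 and -0.0937 to 0.0466 for Vip. With 1 library left out in turn, the log2 difference between sexes ran from -0.0519 to 0.082 for Dlx1, -0.107 to 0.0615 for Reln, -0.1256 to 0.0057 for Slc32a1, -0.0722 to 0.0539 for Sst and -0.1204 to 0.0361 for Vip. With 1 library left out in turn, the log2 difference between runs ran from -0.0719 to 0.0883 for Dlx1, -0.0306 to 0.0526 for Gad2, -0.075 to 0.3177 for Htr3a, -0.0999 to 0.0168 for Lhx6, -0.058 to 0.1077 for Pvalb and -0.0016 to 0.1041 for Slc32a1. With 1 library left out in turn, the correlation with the striatum score ran from -0.1037 to 0.3213 for Gad1, -0.379 to 0.2176 for Htr3a, -0.5827 to 0.0183 for Lhx6, -0.1379 to 0.4895 for Pvalb, -0.0013 to 0.5368 for Reln, -0.2537 to 0.0908 for Slc32a1, -0.3262 to 0.2373 for Sst and -0.4999 to 0.2243 for Vip. The cause of these changes was not tested. Of all tested genes, 37 were called between genotypes, and 80 with DESeq2, 82 with no filter, 72 with the run as a term, 7 in males, 6 in females and 72 at an adjusted p under 0.1, and 19 to 82 with a library left out. Between runs 53 were called, 95 with no filter, 111 at an adjusted p under 0.1 and 11 to 77 with a library left out. Between sexes 4 were called, and 1 to 6 with a library left out. The interaction with the run called 1 gene, and 4 with DESeq2. No paired analysis by replicate number was possible because these numbers follow the order of the samples and tie no mouse to another; blocking by run, which needs no such pairing, was fitted as a term (Sst adjusted p = 0.0843 by edgeR). Htr3a, with 79 to 152 reads a library, is the gene that depth limits most.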

Other observations

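Ratios between the transcripts of class genes within a library do not depend on the scaling between libraries. They are ratios of RNA levels and not of cell numbers. The ratio of Sst to Pvalb in CPM was 4.41 ± 0.777 in the heterozygous and 3.801 ± 0.393 in the wild type libraries (SD, n = 4), with heterozygous replicate 3 highest at 5.54 and the groups overlapping. By run it was 4.42 ± 0.773 in the second and 3.79 ± 0.384 in the first (SD, n = 4). The ratio of Sst to Vip was 4.91 ± 0.425 in the heterozygous and 4.26 ± 0.873 in the wild type libraries (SD, n = 4). By run it was 5.05 ± 0.235 in the second and 4.13 ± 0.778 in the first (SD, n = 4). In the first run it was 5.14 and 4.30 in the heterozygous and 3.73 and 3.34 in the wild type libraries, and in the second run it lay between 4.76 and 5.25 in all 4 libraries. Pvalb to Vip was 1.14 ± 0.226 against 1.11 ± 0.123 between the genotypes (SD, n = 4). Over these 3 ratios and both factors, 6 comparisons chosen after seeing the data, the smallest exact two-sided permutation p was 0.0857, for Sst to Vip between the runs, and its adjusted value was 0.343.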
